A study of Homo sapiens with 8 samples.

Results

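The metalloproteinases of the ADAM, ADAMTS and MMP families and their tissue inhibitors, the TIMPs, were examined in MDA-MB-231 cells given either control siRNA or siRNA against ADAR1. Genes were taken by symbol (ADAM, ADAMTS or MMP followed by a number only, and TIMP1 to TIMP4) and by a mean estimated count of 10 or more over the 8 libraries. This gave 36 genes of the 19892 in the deposited table: 11 of 20 ADAM genes, 10 of 19 ADAMTS genes, 11 of 22 MMP genes and 4 of 4 TIMP genes. Of the other 29 genes with such symbols, 10 had no count in any library and 19 had a mean count above 0 and under 10. The genes nearest to the limit were ADAM11, with a mean count of 10.4, and MMP8, with a mean count of 8.12, which was left out.

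MDA-MB-231 is an established line from a triple-negative breast cancer. Each of 4 groups held 2 libraries: control siRNA Input, ADAR1 siRNA Input, control siRNA Ribo-seq and ADAR1 siRNA Ribo-seq. Input libraries hold RNA fragments cut from a gel at a longer size and stand for RNA level, and Ribo-seq libraries hold fragments of footprint size, the stretches of mRNA that ribosomes cover. Lysates were spun through a sucrose gradient before RNA was purified, per the labels' protocols. The sources used here do not give the siRNA sequences, the time after transfection or a nuclease step. No label ties a replicate to a culture of its own, so that the p-values below rest on a spread that may be technical. All groups come from this 1 line.

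ADAMs are membrane-anchored proteases with a disintegrin domain that cut the extracellular part of growth factors, cytokines, receptors and adhesion proteins from the cell surface, a step called shedding. ADAMTS proteases are secreted, carry thrombospondin repeats and act on proteoglycans, procollagens and other matrix proteins. MMPs are secreted or membrane-anchored, are made as inactive precursors and together degrade most matrix proteins, and TIMPs bind the zinc of the active site of MMPs and of some ADAMs. In breast cancer cells these enzymes are known for their part in invasion and in the release of ligands of the EGF receptor family.

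Library depth and the siRNA target bear on every value below. Estimated counts totalled 15732757 to 17153716 in Input libraries and 10492223 to 14875465 in Ribo-seq libraries, and the 36 genes took 0.33% to 0.451% of them. ADAR, the gene of the RNA-editing enzyme ADAR1, stood at 106.2 and 110.2 TPM (a level scaled for gene length and library size) in control Input and at 14.8 and 30.6 TPM in ADAR1 siRNA Input. Replicate 1 of the ADAR1 siRNA thus held 13.7% of the control mean in Input and 7.87% in Ribo-seq, whereas replicate 2 held 28.3% and 42.7%. By edgeR the ADAR log2 fold change in RNA was -2.26 ± 0.32 (SE, adjusted p = 0.0527), and in footprints it was -2.04 ± 0.47 (adjusted p = 0.0485). The markers fit a mesenchymal triple-negative line in part: VIM, encoding vimentin, stood at 4441 to 4694 TPM in Input, while ESR1, the estrogen receptor gene, stood at or under 0.137 TPM and PGR, the progesterone receptor gene, at or under 0.076 TPM in each Input library. The luminal keratins KRT8 and KRT18 were nonetheless present at 581.3 to 727.6 TPM. Among the other luminal or HER2 markers, ERBB2, the HER2 gene, stood at 29.5 to 35.5 TPM in Input and GATA3 at 5.8 to 8.5 TPM. CDH1 and FOXA1 stood at or under 0.151 TPM there. Of the mesenchymal markers, SPARC stood at only 1.1 to 3.9 TPM in Input, and the others at or above 90.8 TPM. Summed markers of fibroblasts, over 6 genes, stood at 5.57 to 6.15 TPM in control Input and 7.97 to 8.02 TPM with ADAR1 siRNA, with COL1A1 at 2.73 to 3.49 TPM, and those of endothelial cells at or under 8.75 TPM over 4 genes. Of the 6 leukocyte markers, PTPRC stood at or under 0.377 TPM in Input and CD68, also found in lysosomes of other cells, made up most of a sum of 235.5 to 236.1 TPM in control Input and 181.0 to 185.9 TPM with ADAR1 siRNA. The part of these marker differences in the results was not tested.

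With control siRNA, 5 genes stood above 200 TPM in both Input libraries besides ADAM9. TIMP1, a secreted inhibitor of most MMPs, was highest at 703.5 and 726.7 TPM. MMP1, the interstitial collagenase, stood at 405.0 and 472.6 TPM, and MMP14, the membrane-type enzyme that activates pro-MMP2 and cuts collagen at the cell surface, at 414.9 and 429.8 TPM. TIMP2, which inhibits MMPs and also takes part in pro-MMP2 activation at MMP14, stood at 388.4 and 385.7 TPM, and TIMP3, the matrix-bound inhibitor that also acts on ADAM17, at 237.8 and 236.5 TPM. MMP1 and MMP14 did not differ beyond their spread in control Input (438.8 ± 47.8 and 422.3 ± 10.5 TPM, mean ± SD, n = 2), whereas TIMP1 stood above both in each library.

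ADAM9 led the ADAM family at 214.4 and 214.8 TPM, followed by ADAM15 (121.2 and 123.6 TPM), ADAM10 (102.5 and 98.1 TPM) and ADAM8 (91.3 and 94.4 TPM). All 4 are sheddases with an active metalloproteinase domain. Among ADAMTS genes, ADAMTS1, which cuts aggrecan and versican, stood at 25.1 and 27.9 TPM and ADAMTS15, of the same proteoglycan-cleaving group, at 24.8 and 26.8 TPM, so that their ranges overlapped. The gelatinase gene MMP2 stood at 0.492 and 0.654 TPM. MMP9, the other gelatinase, had 17.1 TPM in control Input replicate 1 and 1.60 TPM in replicate 2, the widest gap between control Input replicates among members whose mean count reached 50. By summed TPM, TIMPs made up 46.3% and 45.5% of the 36 genes in control Input, MMPs 29.5% and 30.9%, ADAMs 20.9% and 20.3%, and ADAMTS genes 3.3% and 3.36%.

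**Figure D1:**
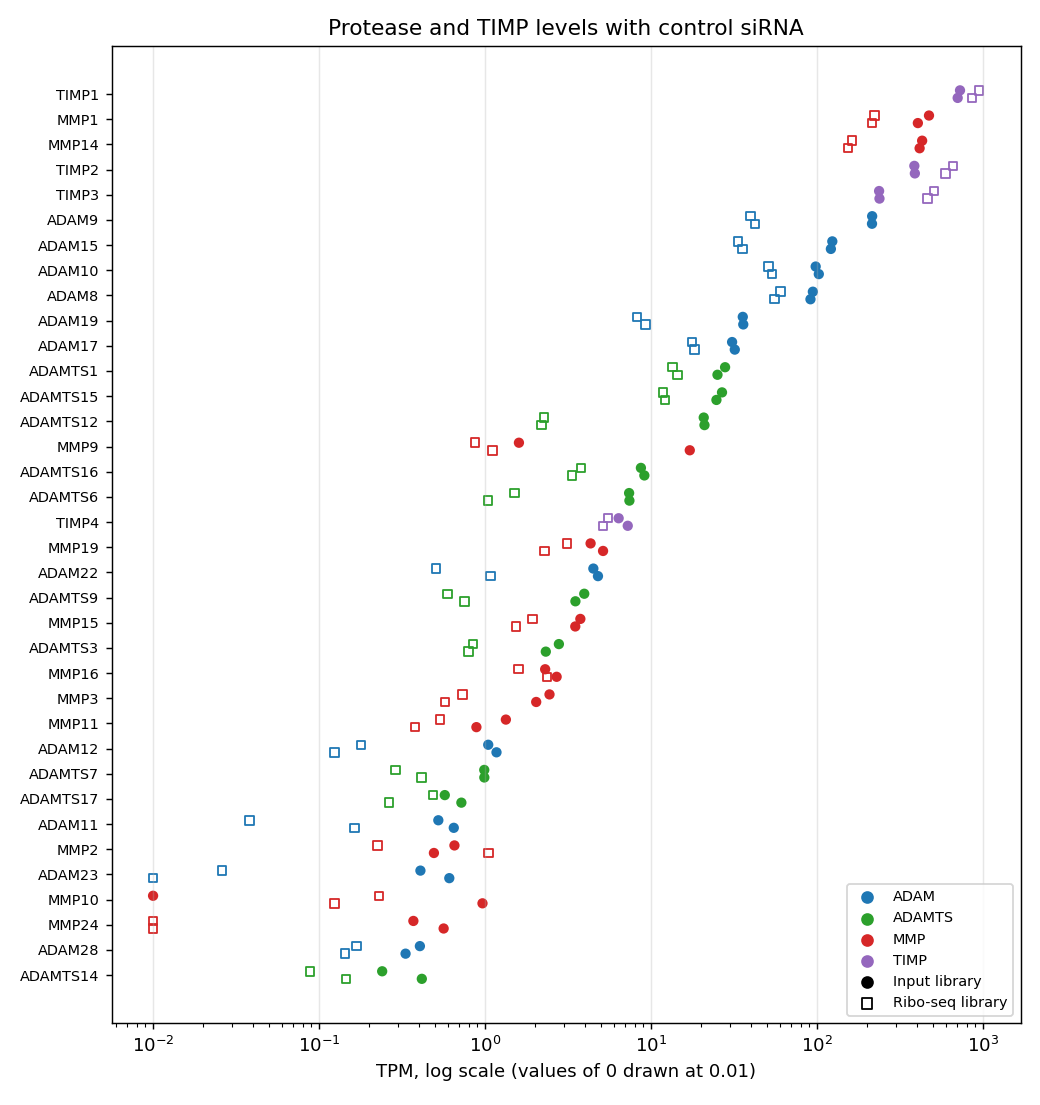
TPM (log scale) of the 36 protease and TIMP genes in each control siRNA library, with filled circles for the 2 Input libraries, open squares for the 2 Ribo-seq libraries and colours for the families. TIMP1, TIMP2 and TIMP3 are the genes above 200 TPM whose Ribo-seq values lie above their Input values, and ADAMTS12, ADAM12 and ADAM9 lie far to the left in Ribo-seq.

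The authors' deposited table also gives translational efficiency, the Ribo-seq TPM divided by the Input TPM, whose control mean ran from 0.107 for ADAMTS12 to 2.04 for TIMP3 over the 33 members with a value in both control columns. The median over 12198 genes (mean count of 10 or more, a value in both columns) was 0.377. In the authors' deposited table TIMP3 (1.94 and 2.14), TIMP2 (1.53 and 1.71) and TIMP1 (1.22 and 1.30) stood above 93.1%, 90.7% and 86.7% of these genes. MMP1 (0.528 and 0.470), ADAM10 (0.524 and 0.519) and ADAM17 (0.571 and 0.572) stood above the median, and MMP14 (0.371 and 0.378) near it, in the authors' deposited table. ADAM9 (0.198 and 0.184), ADAM19 (0.258 and 0.231) and ADAM12 (0.106 and 0.171) stood below it. TIMPs made up 75.3% and 76.8% of the summed TPM of the 36 genes in control Ribo-seq.

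After ADAR1 siRNA, TIMP1 was the 1 member whose RNA changed by edgeR's test across all genes. DESeq2 also called ADAM9, ADAM8 and MMP16 (adjusted p = 1.48e-05, 0.000694 and 0.0258), and edgeR with no filter on low counts also called ADAM9 (adjusted p = 0.0396). With TIMP1, DESeq2 thus called 4 of the 17 members given an adjusted p, beside 443 of 9021 genes. With a replicate block in the model, edgeR called 10 of 36 members, beside 1095 of 12644 genes. These were TIMP1, ADAM8, ADAM9, ADAM15, ADAM19, ADAMTS1, MMP1, MMP3, MMP10 and MMP16. The Input level of TIMP1 stood at 477.1 and 386.6 TPM, below both controls (703.5 and 726.7 TPM), so that the groups did not overlap. Its RNA fell 1.68-fold (log2 -0.75 ± 0.09, edgeR adjusted p = 0.0488). The call lay close to the threshold. It was lost when either control Input library was left out (log2 -0.77 without replicate 1 with adjusted p = 0.300 by edgeR, and -0.73 without replicate 2 with adjusted p = 0.283), with upper-quartile scaling (adjusted p = 0.0542) and when all 8 libraries shared 1 fit (adjusted p = 0.174), while the size stayed between -0.86 and -0.64 over all alternatives. TIMP1 lies inside SYN1, whose mean Input count of 5.25 is 0.173% of that of TIMP1.

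TIMP1 footprints did not follow in both replicates. They stood at 856.7 and 948.3 TPM with control siRNA and at 881.1 and 627.3 TPM with ADAR1 siRNA, so the groups overlapped (log2 -0.15 ± 0.20, edgeR adjusted p = 0.698). The log2 value became -0.51 when ADAR1 siRNA Ribo-seq replicate 1 was left out and 0.10 when replicate 2 was. The change of TIMP1 translational efficiency was 0.63 ± 0.27 on the log2 scale, with an adjusted p of 0.197 by edgeR.

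No other TIMP passed the edgeR test in any comparison. In alternative fits TIMP3 footprints passed by DESeq2 (adjusted p = 0.0357) and by edgeR with no filter on low counts (adjusted p = 0.00932). They also passed by edgeR with a replicate block (adjusted p = 0.00334). TIMP2 went from 387.0 ± 1.96 to 396.7 ± 41.1 TPM in Input, and TIMP3 from 237.2 ± 0.886 to 240.0 ± 71.3 TPM (mean ± SD, n = 2). In Input, ADAR1 siRNA replicate 1 held more TIMP3 than the controls (290.5 TPM) and replicate 2 less (189.6 TPM). TIMP3 footprints stood at 462.4 and 507.2 TPM with control siRNA and at 714.4 and 593.7 TPM with ADAR1 siRNA, with no overlap, yet the difference missed the threshold (log2 0.54 ± 0.17, edgeR adjusted p = 0.0887). TIMP2 footprints, at 593.1 and 658.6 against 653.8 and 779.3 TPM, had a log2 fold change of 0.29 ± 0.13 (edgeR adjusted p = 0.224). TIMP4, the least abundant, had 7.24 and 6.38 TPM in control Input and 6.80 and 7.09 TPM with ADAR1 siRNA. TIMP3 and TIMP4 lie within SYN3 and SYN2, which held 1.65% and 3.15% of their counts in Input.

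Of the 36 members tested in RNA by edgeR, 1 was called, 2.78%, beside 0.253% of all 12644 genes tested (32 genes, 10 higher and 22 lower). At an unadjusted p under 0.05 there were 13 of 36, 36.1%, beside 25.3% of all genes. Libraries of the 2 siRNAs did not overlap for 19 of 36, or 52.8%, beside 58.2% of all genes tested. ADAR1 siRNA lay above in 15 of the 36, beside 28.5% of all genes tested, and below in 4 of the 36, beside 29.7%. Of those above, ADAM28, ADAMTS14 and MMP10 would have failed the filter on low counts without the ADAR1 siRNA libraries, where they are high. MMP3, which lay below, would have failed it without the controls. Their place in these counts is thus in part set by the filter, as is that of ADAM28, ADAMTS14 and MMP3 at an unadjusted p under 0.05 by edgeR. The median log2 fold change was 0.06 over the 36 genes and 0.00 over all genes. Markers of luminal epithelial cells summed to 1370 and 1373 TPM in control Input and to 1213 and 1334 TPM with ADAR1 siRNA, most of it KRT8 and KRT18.

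In Ribo-seq, 5 members rose and none fell: the sheddases ADAM9, ADAM10, ADAM12 and ADAM19 and the membrane-type MMP16. That is 5 of the 33 members tested, 15.2%, beside 3.54% of all 12000 genes tested (425 genes). For rises alone the background was 1.88%, and for falls 1.67%. The split of all genes depends on scaling, with 225 higher and 200 lower under TMM, 311 and 176 with upper-quartile scaling and 211 and 259 with RLE scaling. DESeq2 gave 379 higher and 585 lower. These 5 calls were made by edgeR with each of the 3 scalings. At an unadjusted p under 0.05 there were 15 of 33 members, 45.5%, beside 24% of all genes. The groups did not overlap for 21 of 33 members, beside 56.3% of all genes, with ADAR1 siRNA above in 20, beside 30.1%, and below in 1, beside 26.2%. ADAM12, ADAM28, ADAMTS14 and MMP10 passed the filter on low counts only through the ADAR1 siRNA libraries, where they are high. Their place among the rises is thus in part set by the filter. With a filter at a mean count of at least 50, 4 of 23 members were called, beside 525 of 9975 genes. Beside these rises, the summed luminal epithelial markers stood at 764.7 and 928.4 TPM in control Ribo-seq and at 401.7 and 632.6 TPM with ADAR1 siRNA. VIM footprints stood at 1882 and 2275 TPM and at 831 and 1473 TPM, in both cases lower with ADAR1 siRNA without overlap. Other genes of the mesenchymal list did not follow VIM. CAV1, AXL, EGFR and FN1 footprints lay above both controls, CAV1 at 788 and 738 against 1126 and 1153 TPM. CD44 and SPARC overlapped, as did the sum over all 7 genes (4333 and 4587 against 3680 and 4658 TPM). Their part in the results was not tested.

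ADAM19, a sheddase that cuts neuregulin, rose 2.29-fold in footprints. Its Ribo-seq level was 9.28 and 8.25 TPM with control siRNA and 16.8 and 21.0 TPM with ADAR1 siRNA, so both ADAR1 siRNA libraries lay above both controls. The log2 fold change was 1.20 ± 0.16 (edgeR adjusted p = 0.0184). In Input it stood at 35.9 and 35.7 against 42.2 and 47.6 TPM, also without overlap, a log2 fold change of 0.31 ± 0.10 that missed the threshold (edgeR adjusted p = 0.123). Leaving out control Ribo-seq replicate 2 raised the adjusted p of the footprint change to 0.0548, with a log2 fold change of 1.09, and leaving out any other library kept the call.

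ADAM9, a widely expressed sheddase, rose 1.86-fold in footprints, from 42.4 and 39.6 TPM to 64.8 and 79.4 TPM (log2 0.90 ± 0.14, edgeR adjusted p = 0.0278). In Input it stood at 214.4 and 214.8 TPM with control siRNA and at 310.4 and 326.3 TPM with ADAR1 siRNA. No Input libraries of the 2 groups overlapped, and the log2 fold change of 0.53 ± 0.08 had an adjusted p of 0.0527 by edgeR, just over the threshold. The footprint call was lost without either control Ribo-seq library (adjusted p = 0.0556 without replicate 1 at log2 0.96, and 0.269 without replicate 2 at log2 0.83, both by edgeR). The gene overlaps TM2D2, whose counts came to 10.1% of those of ADAM9 in Input and 40.7% in Ribo-seq, and which also had more Ribo-seq counts with ADAR1 siRNA (859 and 732 against 1447 and 1579). The sources used here do not say whether reads were counted by strand, so the split between these 2 genes is uncertain.

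ADAM10, the main sheddase of Notch receptors, N-cadherin and amyloid precursor protein, rose 1.64-fold in footprints. Ribo-seq levels were 53.7 and 50.9 TPM against 81.7 and 81.9 TPM, and the ADAR1 siRNA pair lay close together and above both controls (log2 0.71 ± 0.15, edgeR adjusted p = 0.0422). In Input ADAM10 stood at 102.5 and 98.1 against 132.2 and 111.0 TPM (log2 0.25 ± 0.08, edgeR adjusted p = 0.139). This call too needed both controls, with an adjusted p of 0.156 at log2 0.77 without control Ribo-seq replicate 1 and of 0.475 at log2 0.65 without replicate 2 (edgeR).

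MMP16, a membrane-type MMP also known as MT3-MMP, rose 2.28-fold in footprints. It stood at 2.37 and 1.59 TPM with control siRNA and at 4.43 and 4.35 TPM with ADAR1 siRNA in Ribo-seq (log2 1.19 ± 0.25, edgeR adjusted p = 0.0431). Input levels of MMP16 were 2.70 and 2.30 against 5.01 and 3.65 TPM (log2 0.77 ± 0.17, edgeR adjusted p = 0.0809). Without control Ribo-seq replicate 2 the footprint value was 0.99 with an adjusted p of 0.286 by edgeR, and by limma-voom on all 4 libraries the adjusted p was 0.0516.

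ADAM12, a sheddase of heparin-binding EGF-like growth factor that is little expressed in these cells, had the largest fitted footprint rise of the 5, on few reads. Its Ribo-seq counts were 5 and 6 with control siRNA and 28 and 51 with ADAR1 siRNA, or 0.124 and 0.179 against 0.585 and 0.905 TPM. ADAM12 passed the filter on low counts only through the ADAR1 siRNA libraries, so a fall from its control level could hardly have been called. The log2 fold change was 2.43 ± 0.55, that is 5.41-fold (edgeR adjusted p = 0.046). Input held 1.17 and 1.04 against 1.83 and 1.90 TPM (log2 0.85 ± 0.20, edgeR adjusted p = 0.0855). The call held only in the edgeR fit without ADAR1 siRNA Ribo-seq replicate 1 (log2 2.78, adjusted p = 0.0029) among the 4 fits that leave out 1 Ribo-seq library. Without replicate 2 of the ADAR1 siRNA the log2 fold change was 1.94 (adjusted p = 0.0777), without control replicate 1 it was 2.21 (0.106) and without control replicate 2 it was 2.67 (0.145).

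**Figure D2:**
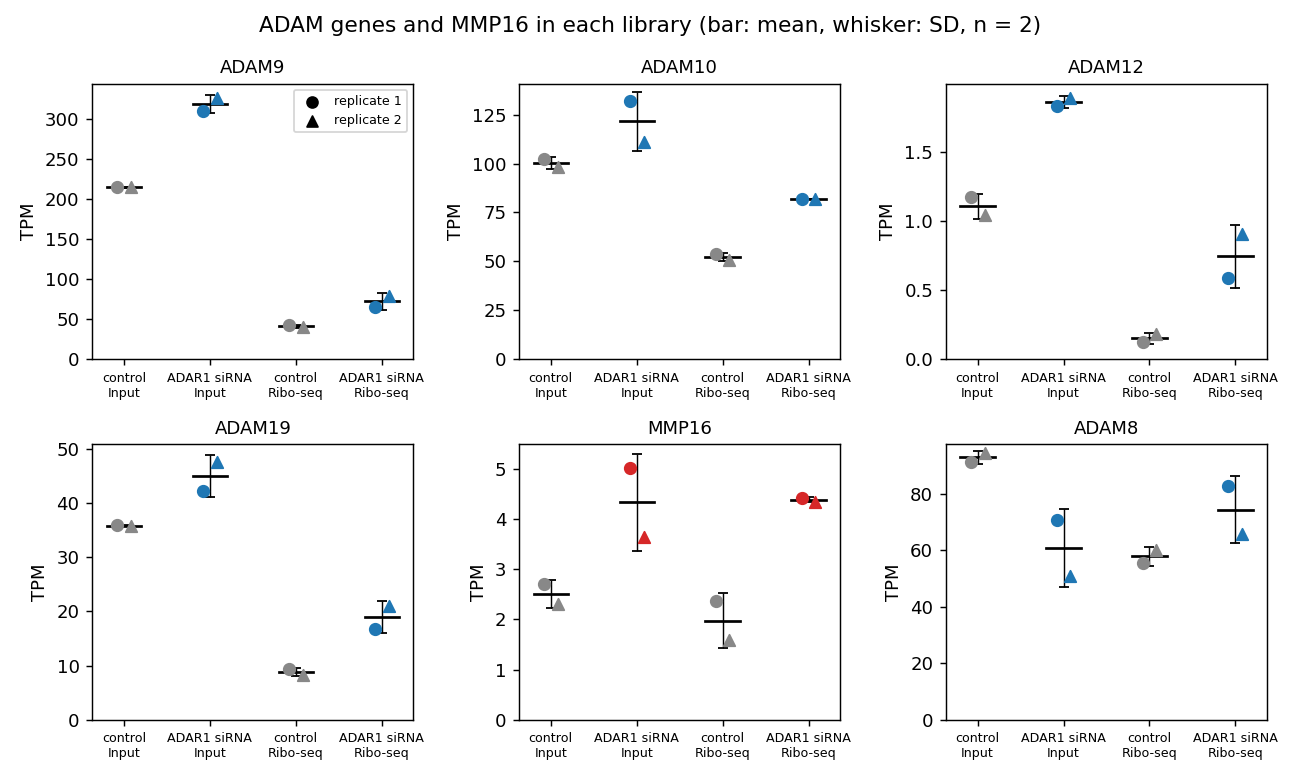
TPM of ADAM9, ADAM10, ADAM12, ADAM19, MMP16 and ADAM8 in each library, with circles for replicate 1, triangles for replicate 2, a bar for the mean and whiskers for the SD (n = 2). In Ribo-seq both ADAR1 siRNA libraries lie above both controls for all 6 genes, whereas for ADAM8 both ADAR1 siRNA Input libraries lie below both controls.

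The stretches upstream of called genes are printed to show what the members that moved share or lack there. Of the 36 members, 22 had a promoter in the RefSeq table for GRCh38.p14 (250 bases before to 50 after the start), among them ADAM10, ADAM12, ADAM19 and TIMP1. MMP10, which was not called, is shown beside them for its different base composition. Each line gives the last 100 bases before the annotated start on the gene's own strand, in lower case, with GC boxes (GGGCGG on either strand) and TATA boxes (TATAAA on either strand) in capitals. The positions are chr15:58749708-58749807 (minus strand) for ADAM10, chr10:126388478-126388577 (minus) for ADAM12, chr5:157575776-157575875 (minus) for ADAM19, chrX:47582336-47582435 (plus) for TIMP1 and chr11:102780629-102780728 (minus) for MMP10.
ADAM10: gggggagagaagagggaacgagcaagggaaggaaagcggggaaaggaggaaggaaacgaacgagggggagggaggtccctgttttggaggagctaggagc
ADAM12: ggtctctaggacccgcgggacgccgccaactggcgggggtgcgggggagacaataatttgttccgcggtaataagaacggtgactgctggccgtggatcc
ADAM19: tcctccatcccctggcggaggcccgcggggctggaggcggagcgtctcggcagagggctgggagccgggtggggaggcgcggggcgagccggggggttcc
TIMP1: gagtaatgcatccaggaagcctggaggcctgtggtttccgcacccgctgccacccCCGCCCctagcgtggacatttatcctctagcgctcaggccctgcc
MMP10: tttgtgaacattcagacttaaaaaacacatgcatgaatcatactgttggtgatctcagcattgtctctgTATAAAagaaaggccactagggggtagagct

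These stretches differ in composition, with a G and C content of 60% in ADAM10, 63% in ADAM12, 80% in ADAM19, 64% in TIMP1 and 39% in MMP10. The stretch of ADAM8, which was not called and is not printed, had 82%. In the full window, from 250 bases before to 50 after the start, a GC box was found in 19 of the 22 members and in 45% of all 35114 promoters in the table. A TATA box was found in 1 of the 22, MMP10, 31 to 26 bases before the start, and in 11.5% of all promoters. The AP-1 element (TGACTCA or TGAGTCA, each the reverse complement of the other), known from collagenase and stromelysin promoters, was in 0 of the 22 windows and in 4.95% of all promoters. MMP1 and MMP3 were among the members without an entry. Unlike the members, the promoters in the table were not chosen by a count in these cells, so these shares compare unlike sets.

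ADAM8, a sheddase induced in activated leukocytes and some tumours, went opposite ways in the 2 assays. Input levels were 91.3 and 94.4 TPM with control siRNA and 70.5 and 50.9 TPM with ADAR1 siRNA, so both ADAR1 siRNA libraries lay below both controls (log2 -0.64 ± 0.13, edgeR adjusted p = 0.0715). Ribo-seq levels were 55.5 and 60.1 TPM against 82.6 and 65.9 TPM, with both ADAR1 siRNA libraries above both controls (log2 0.47 ± 0.18, edgeR adjusted p = 0.142). In the authors' deposited table its translational efficiency was 0.608 and 0.637 with control siRNA and 1.17 and 1.29 with ADAR1 siRNA. The fitted change of translational efficiency was 1.14 ± 0.24 on the log2 scale, with an adjusted p of 0.0555 by edgeR, just short of the threshold. With a replicate block in the edgeR model the adjusted p was 0.0378, in a fit where 448 of 12953 genes passed.

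ADAM19 came equally close, with a log2 change of translational efficiency of 0.91 ± 0.18 (edgeR adjusted p = 0.0538) and ratios in the authors' deposited table of 0.258 and 0.231 against 0.399 and 0.441. Both genes passed by DESeq2 (adjusted p = 0.000883 for ADAM8 and 0.00282 for ADAM19), as did 997 of 8396 genes. With a replicate block in the edgeR model ADAM19 had an adjusted p of 0.0384. By limma on the logarithm of the deposited ratio both had an adjusted p of 0.341. ADAM12 had a larger fitted value on fewer reads (1.62 ± 0.54, edgeR adjusted p = 0.113).

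No member passed the test of translational efficiency by edgeR, where 0.0463% of all 12953 genes tested did (6 genes, with 0.0154% higher and 0.0309% lower). At an unadjusted p under 0.05 there were 11 of 36 members, 30.6%, beside 22.7% of all genes. DESeq2 called 2 of the 15 members given an adjusted p, beside 997 of 8396 genes, a like share. By limma-voom 0 members and 0 genes were called. Of the 36 values, 29 lay above 0, 80.6%, beside 57.3% of all genes tested, and the median was 0.47 beside 0.09. Some of these values rest on few control footprints, such as MMP24 (control Ribo-seq counts of 0 and 0, log2 5.31) and ADAM23 (0 and 1, log2 4.08). With a filter at a mean count of at least 50, the median was 0.34 over 25 members, beside 0.02 over all genes. Among the 33 members tested in both assays, 27 had a higher fold change in footprints than in RNA. The median footprint change was 0.47 over these 33 genes and 0.05 over all genes tested. It was 0.31 without ADAR1 siRNA Ribo-seq replicate 2 and 0.61 without replicate 1.

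By role, the 8 sheddase ADAMs with an active site had log2 footprint changes from 0.26 to 2.43 with a median of 0.81, beside 0.05 over all genes. Of the 8, 4 were called, all higher, beside 1.88% of all genes tested called higher and 3.54% in either direction. ADAM12, which is 1 of these 4 and has the 2.43, and ADAM28 passed the filter on low counts only through the ADAR1 siRNA libraries. The range, median and share are thus in part set by the filter. In RNA the 8 ran from -0.64 to 1.41 with a median of 0.28, beside 0.00 over all genes. None was called there by edgeR on all 4 Input libraries with a filter on low counts and no replicate block. The remaining 4 sheddases were ADAM8, ADAM15, ADAM17 and ADAM28. ADAM17, also called TACE, which releases TNF and EGF receptor ligands, stood at 18.2 and 17.6 against 22.5 and 26.1 TPM in Ribo-seq without overlap (log2 0.53 ± 0.15, edgeR adjusted p = 0.0675, and 0.0446 by DESeq2), and at 31.9 and 30.8 against 35.1 and 32.7 TPM in Input (log2 0.09 ± 0.07, adjusted p = 0.459). It overlaps IAH1, whose counts came to 33.2% of its own in Input and 52.8% in Ribo-seq. ADAM15, an adhesion-related sheddase, stood at 121.2 and 123.6 against 104.8 and 97.2 TPM in Input (log2 -0.29 ± 0.06, edgeR adjusted p = 0.0796), and its Ribo-seq groups overlapped (35.5 and 33.3 against 43.7 and 33.8 TPM).

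The ADAMs without an active site, ADAM11, ADAM22 and ADAM23, act as ligand-binding or adhesion proteins mainly known from the nervous system. Of these, ADAM22 alone had enough footprints to be tested (log2 0.77 ± 0.37, edgeR adjusted p = 0.231). ADAM23 had Ribo-seq counts of 0 and 1 with control siRNA and of 11 and 10 with ADAR1 siRNA, on Input counts of 25 and 18 against 17 and 21. ADAM23 is outside the naming rule and was chosen after its values were seen.

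**Figure D3:**
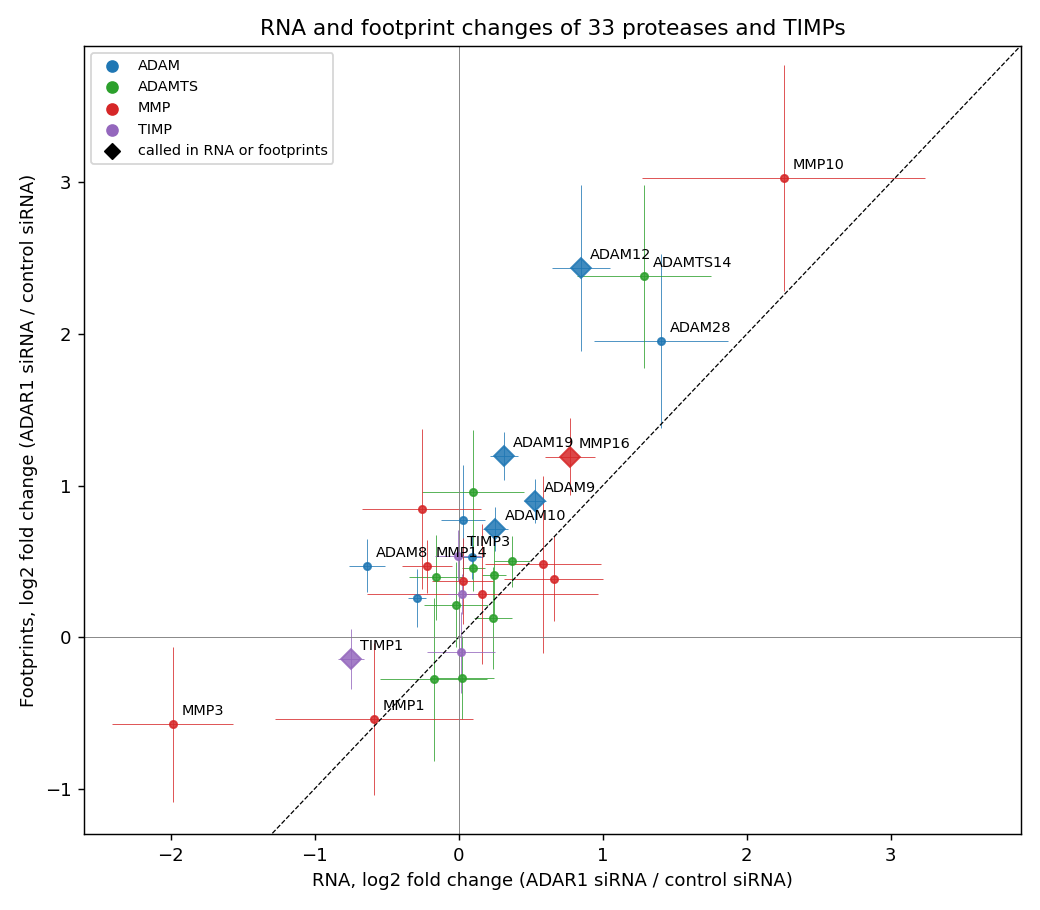
Log2 fold change (ADAR1 siRNA over control siRNA) in RNA on the x axis and in footprints on the y axis for the 33 members tested in both, with whiskers for the SE, colours for the families and diamonds for genes called in RNA or footprints. Of these points, 27 lie above the dashed line of equal change, and TIMP1 is the diamond left of 0.

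Among the MMPs, values of MMP1 and MMP14 differed widely between the ADAR1 siRNA replicates. MMP1 stood at 405.0 and 472.6 TPM in control Input, at 84.7 TPM in ADAR1 siRNA replicate 1 and at 494.1 TPM in replicate 2. These are 19.3% and 112.6% of the control mean. Ribo-seq showed the same split, with 214.0 and 222.0 TPM in the controls, 46.1 TPM (21.1% of their mean) in replicate 1 and 246.2 TPM (112.9%) in replicate 2.

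MMP1 was not called in either assay (log2 -0.59 ± 0.69 in RNA with adjusted p = 0.626, and -0.54 ± 0.50 in footprints with adjusted p = 0.549, edgeR). This depended on the model. With a replicate block edgeR called MMP1 in both assays, and with no filter on low counts it called MMP1 in footprints. Leaving out ADAR1 siRNA replicate 2 gave log2 values of -2.43 in RNA and -2.11 in footprints, and leaving out replicate 1 gave 0.19 in each. Its translational efficiency in the authors' deposited table stayed between 0.470 and 0.544 in all 4 columns.

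MMP14 in Input stood at 414.9 and 429.8 TPM with control siRNA, at 302.0 TPM in ADAR1 siRNA replicate 1 and at 427.1 TPM in replicate 2 (log2 -0.22 ± 0.17, edgeR adjusted p = 0.456). In Ribo-seq it stood at 154.1 and 162.4 TPM against 160.1 and 254.4 TPM (log2 0.47 ± 0.17, edgeR adjusted p = 0.140). Replicate 1 was again the lower of the 2 in both assays. The log2 translational efficiency change of MMP14 was 0.71 ± 0.27 (edgeR adjusted p = 0.157).

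Replicates of the ADAR1 siRNA differed in the same direction in Input and Ribo-seq for 30 of 33 members, beside 58.9% of 11743 genes. For control siRNA this held for 18 of 33 members, beside 50.5% of genes. ADAR itself was lower in replicate 1 than in replicate 2 in both assays. A gap of more than 1 on the log2 scale between the ADAR1 siRNA replicates was seen in Input for MMP1, MMP10, MMP19 and MMP24, and in Ribo-seq for MMP1, MMP9, MMP10 and ADAMTS7. Between control replicates it was seen for MMP9 and MMP10 in Input and for MMP2 and ADAMTS17 in Ribo-seq. The ratio of summed TIMP to summed MMP TPM stood at 2.7 in ADAR1 siRNA Input replicate 1, at 1.06 in replicate 2, and at 1.57 and 1.47 in the controls.

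**Figure D4:**
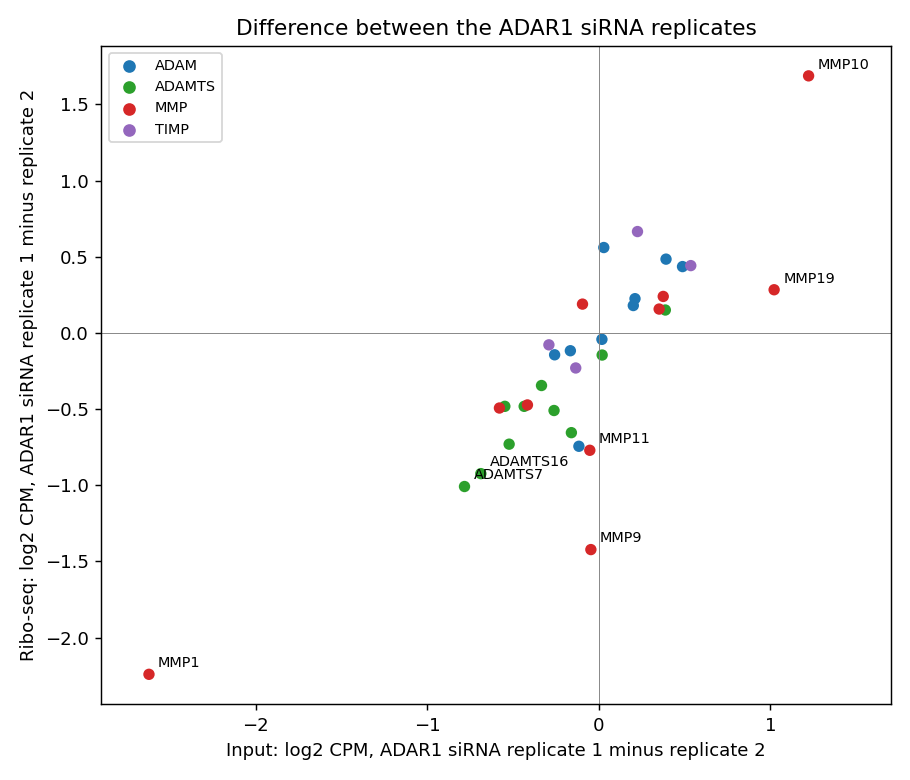
Log2 CPM of ADAR1 siRNA replicate 1 minus replicate 2 in Input (x axis) and Ribo-seq (y axis) for the 33 members tested in both assays, with colours for the families. For 30 of the 33 points both differences have the same sign, with MMP1 at the lower left (-2.62 and -2.24) and MMP10 at the upper right (1.22 and 1.69).

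MMP19, which cuts basement membrane proteins, had 5.14 and 4.32 TPM in control Input, 11.5 TPM in ADAR1 siRNA replicate 1 and 4.60 TPM in replicate 2 (log2 0.66 ± 0.34, edgeR adjusted p = 0.279). MMP9 had 10.6 and 10.4 TPM in ADAR1 siRNA Input, between its 2 control values, so no direction could be given (log2 0.16 ± 0.80, edgeR adjusted p = 0.917). In Ribo-seq MMP9 stood at 1.11 and 0.869 against 0.558 and 1.77 TPM, an overlap as well.

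MMP3 and MMP10, the stromelysins 1 and 2, and MMP1 are neighbours on chromosome 11, at 102835801 to 102843609, 102770502 to 102780628 and 102789919 to 102798160 (GRCh38.p14). They did not move together. The first 2 are outside the naming rule and were chosen after their values were seen. MMP3 had Input counts of 24 and 31 with control siRNA and of 8 and 6 with ADAR1 siRNA (log2 -1.99 ± 0.42, edgeR adjusted p = 0.0769), and Ribo-seq counts of 14.8 and 16 against 14.2 and 12.5. MMP10 had Input counts of 11 and 0 against 39 and 16, and Ribo-seq counts of 3.18 and 5 against 65.8 and 20.5 (log2 3.03 ± 0.75 in footprints, edgeR adjusted p = 0.0551). Both ADAR1 siRNA libraries lay above both controls for MMP10 in each assay, but all these values rest on few reads.

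**Figure D5:**
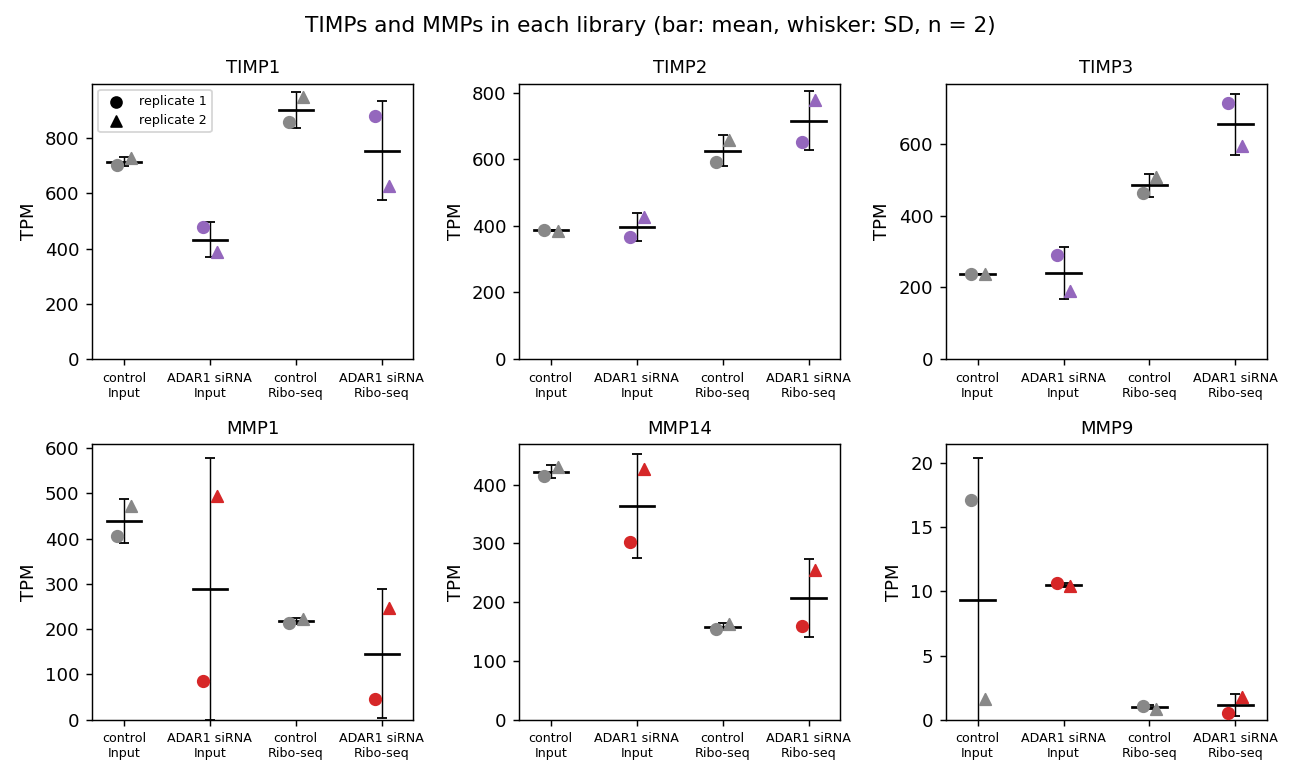
TPM of TIMP1, TIMP2, TIMP3, MMP1, MMP14 and MMP9 in each library, with circles for replicate 1, triangles for replicate 2, a bar for the mean and whiskers for the SD (n = 2). TIMP1 is lower in both ADAR1 siRNA Input libraries, MMP1 is low in replicate 1 of the ADAR1 siRNA in both assays, and MMP9 is far apart between the control Input replicates, where the lower whisker is cut at 0.

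None of the 10 ADAMTS genes was called in the 3 comparisons as described above. Other edgeR fits of the footprints called some of them. These were ADAMTS1, ADAMTS14 and ADAMTS15 when all 8 libraries shared 1 fit and also with a replicate block. With no filter on low counts they were ADAMTS1, ADAMTS7 and ADAMTS14. In RNA the edgeR fit with a replicate block called ADAMTS1. ADAMTS1 had 25.1 and 27.9 against 31.5 and 37.6 TPM in Input (log2 0.37 ± 0.12, edgeR adjusted p = 0.143) and 14.4 and 13.5 against 15.3 and 21.997 TPM in Ribo-seq (log2 0.50 ± 0.17, adjusted p = 0.109). ADAMTS15 had log2 fold changes of 0.10 ± 0.08 in RNA and 0.46 ± 0.15 in footprints (edgeR adjusted p = 0.451 and 0.106). Both had ADAR1 siRNA libraries above both controls in each assay.

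ADAMTS12, which cuts cartilage oligomeric matrix protein, stood at 21.0 and 20.8 against 24.2 and 25.6 TPM in Input without overlap (log2 0.24 ± 0.08, edgeR adjusted p = 0.141). The authors' deposited table gives it control ratios of 0.104 and 0.109. ADAMTS16 followed the replicate split: in Input it stood at 9.11 and 8.69 TPM with control siRNA, at 7.17 TPM in ADAR1 siRNA replicate 1 and at 10.97 TPM in replicate 2, and in Ribo-seq at 3.34 and 3.77 against 1.78 and 3.85 TPM. ADAMTS7, of the same group as ADAMTS12, had Ribo-seq counts of 37 and 22 against 47 and 102 (log2 0.96 ± 0.41, edgeR adjusted p = 0.188).

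The 15 members not covered by the naming rule had mean counts from 10.4 to 184.4. In RNA their log2 fold changes ran from -1.99 to 2.26, 8 of 15 above 0, with edgeR adjusted p-values from 0.0769 to 0.964. In footprints 12 of them were tested, from -0.57 to 3.03, with 10 above 0 and edgeR adjusted p-values from 0.0551 to 0.851. Besides those given above, ADAMTS14, a procollagen N-propeptidase, had Ribo-seq counts of 6 and 3 against 22 and 40 (log2 2.38 ± 0.60, edgeR adjusted p = 0.0581) and ADAM28 of 5 and 5 against 29 and 22 (log2 1.95 ± 0.57, edgeR adjusted p = 0.079), both chosen after their values were seen. MMP24 overlaps MMP24OS, which had 762.2 counts on average in Input against 25.6 for MMP24, so its value is uncertain.

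Genes that act on these proteases were taken from a separate list of 37 regulators, which holds the TIMPs, the furin-type convertases that remove the pro-domains, the iRhoms and tetraspanins that guide ADAM17 and ADAM10, and other binding proteins. In footprints 29 were tested and FURIN alone rose (log2 1.07 ± 0.23, 2.1-fold, edgeR adjusted p = 0.0433), with none lower, beside 3.54% of all genes called. In RNA 33 were tested and TIMP1 alone fell by edgeR, beside 0.253% of all genes called. The median was -0.24 in RNA and 0.26 in footprints, beside 0.00 and 0.05 over all genes.

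Of 36 transmembrane proteins known to be shed, 28 were tested in footprints and 4 rose: JAG1, a Notch ligand (log2 0.68 ± 0.14), ICAM1, an adhesion receptor (0.65 ± 0.15), PTPRK, a receptor phosphatase (0.80 ± 0.15), and TNFRSF1A, the TNF receptor 1 (0.70 ± 0.16), with edgeR adjusted p-values from 0.0393 to 0.046. None fell. Over all genes tested 1.88% were called higher, and 3.54% in either direction. The median footprint change of the shed proteins was 0.47, with 24 of 28 above 0. That is like the 0.47 of the 33 protease and TIMP members, beside 0.05 over all genes. In RNA 29 were tested and L1CAM, an adhesion molecule cut by ADAM10, alone changed, with a log2 fold change of -0.96 ± 0.08 (edgeR adjusted p = 0.0346), beside 0.253% of all genes called. No gene of either list was called in translational efficiency by edgeR, and the list medians there were 0.57 for the regulators and 0.45 for the shed proteins, beside 0.09 over all genes. Levels of shed or active protein were not measured.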

How the data were processed

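Estimated counts, TPM and the translational efficiency ratio were deposited by the authors for each of 8 libraries. Per the submitters' processing notes, cutadapt, Bowtie2, STAR and featureCounts were used with GRCh38 (hg38). The sources used here give no versions or settings. Per the file headers, count values are estimated counts without normalization, between 87% and 90.1% of them whole numbers per library, and TPM sums to 1000000 per library. The deposited ratio equalled Ribo-seq TPM over Input TPM of the same siRNA and replicate number for 100% of genes with a value. Of 19892 gene numbers, 19669 matched a symbol.

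Counts were rounded and tested with edgeR 4.0.16 in R 4.3.3: TMM scaling, filterByExpr, quasi-likelihood tests (two-sided) and Benjamini-Hochberg adjustment over all genes tested, with a threshold of 0.05. RNA changes used 4 Input libraries, footprint changes 4 Ribo-seq libraries, and translational efficiency the interaction of assay and siRNA over all 8. Each SE is the size of the log2 fold change over the root of its F value. With 2 libraries a side, the smallest two-sided p of an exact permutation test is 0.333. Scripts were tested on simulated data. DESeq2 1.42.0 and limma 3.58.1 served as alternatives. Depth and 2 libraries per group limit the precision of every value, and no intervals were formed from single libraries.

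Genes given with full values are members called in any comparison, the TIMPs, the 4 most abundant genes of each protease family in control Input, the 3 largest rises and falls per comparison at a mean count of at least 50, ADAM10, ADAM17, MMP1 and MMP14 in any case, and ADAR. From the lists of regulators and shed proteins, called genes only are named. Alternatives were other scalings, filters and tools, a replicate block, a fit on all 8 libraries, the deposited ratio and leaving out each library. The members and lists were chosen with earlier results of these data known. Each library counted as 1 sample. Replicate pairs differed by more than sampling noise (mean Poisson chi-square per gene from 1.89 to 31.2), which does not show that they come from separate cultures.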

Additional observations from a re-analysis of the deposited data

Results flagged for a closer look

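ADAM8 stood out because the assays moved apart. Both ADAR1 siRNA Input libraries lay below both controls and both ADAR1 siRNA Ribo-seq libraries lay above them. The test of that difference gave a log2 change of translational efficiency of 1.14, which missed the threshold (edgeR adjusted p = 0.0555) and ranged from 0.86 to 1.36 when 1 library was left out. No group held enough libraries for a search for single outlying samples.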

How the results depend on the processing

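The direction of the 6 called member changes (TIMP1 in RNA and 5 in footprints) held in every alternative run. The footprint calls of ADAM9, ADAM10 and ADAM19 held in each alternative on all 4 Ribo-seq libraries and in the fit on all 8. MMP16 and ADAM12 missed the threshold with limma-voom (adjusted p = 0.0516 and 0.0649), and DESeq2 gave both no adjusted p. In RNA the 32 genes called became 11 with upper-quartile scaling, 443 by DESeq2, 95 with no filter, 73 for genes whose mean count reached 50, 1095 with the replicate block, 14 in the fit on all 8 libraries. The 1 of 36 members called became 0 with upper-quartile scaling, and 4 of 17 by DESeq2, which tested 9021 genes. It became 2 of 36 with no filter, where 16281 genes were tested. It became 10 of 36 with the replicate block, where 12644 genes were tested, and 0 in the fit on all 8 libraries. Leaving out 1 library gave 0 to 5420 genes, 0 to 20 members and a member median of 0.075 to 0.16. In footprints the 425 genes called became 964 by DESeq2, 250 by limma-voom, 1693 with no filter, 2102 with the replicate block, 1936 in the fit on all 8 libraries. The 5 of 33 members called became 3 of 33 by limma-voom, beside 250 of 12000 genes. It became 15 of 36 with no filter, beside 1693 of 15536 genes, and 15 of 33 with the replicate block, beside 2102 of 12000. In the fit on all 8 libraries it became 11 of 36, beside 1936 of 12953 genes. Leaving out 1 library gave 77 to 3415 genes, 1 to 15 members and a member median of 0.31 to 0.61. In translational efficiency the 6 genes called became 997 by DESeq2, 0 by limma-voom, 854 with no filter, 2 for genes whose mean count reached 50, 448 with the replicate block, 0 by limma on the deposited ratio. The 0 members called became 2 of 15 by DESeq2, beside 997 of 8396 genes. It became 2 of 36 with no filter, beside 854 of 16931 genes, and 2 of 36 with the replicate block, beside 448 of 12953. The member median was 0.34 for genes whose mean count reached 50 and 0.32 by limma on the deposited ratio, beside 0.02 and -0.04 over all genes. Leaving out 1 library gave 0 to 2252 genes, 0 to 7 members and a member median of 0.37 to 0.56. Uncalled values in RNA that changed sign without 1 library, with their log2 ranges, were MMP1 (-2.43 to 0.19), MMP14 (-0.54 to 0.040), TIMP2 (-0.13 to 0.16), TIMP3 (-0.30 to 0.24), TIMP4 (-0.075 to 0.11), ADAMTS16 (-0.37 to 0.33), ADAMTS7 (-0.38 to 0.45), MMP9 (-0.72 to 2.69). Uncalled values in footprints that changed sign without 1 library, with their log2 ranges, were TIMP4 (-0.27 to 0.020), ADAM15 (-0.042 to 0.46), ADAMTS16 (-0.86 to 0.13), MMP1 (-2.11 to 0.19), TIMP1 (-0.51 to 0.10), ADAMTS12 (-0.013 to 0.71), MMP9 (-0.70 to 0.84). Uncalled values in translational efficiency that changed sign without 1 library, with their log2 ranges, were ADAMTS1 (-0.077 to 0.31), MMP1 (-1.44 to 1.88), MMP19 (-0.74 to 0.28), ADAR (-1.16 to 0.94), ADAMTS16 (-0.80 to 0.12), TIMP4 (-0.24 to 0.012), ADAMTS12 (-0.17 to 0.47), MMP9 (-2.43 to 0.97).

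Sign changes on all libraries were small or unstable values: ADAMTS16 in RNA (-0.017 by limma-voom and -0.0095 with the replicate block), MMP9 in translational efficiency (-0.88 by limma-voom and -0.99 by limma on the deposited ratio) and ADAR there (-0.10 by the latter). The cause was not tested. Replicate numbers were not tied to cultures by the labels. The differences between replicates 1 and 2 did not correlate between siRNAs (r = -0.04 in Input and 0.04 in Ribo-seq over 11743 genes). That cannot exclude pairing of the siRNA groups by number, since control Input replicates differed little (mean Poisson chi-square 1.89) and left little to correlate. Between Input and Ribo-seq of 1 siRNA the correlation was 0.38 for ADAR1 siRNA and 0.0078 for control siRNA. A tie by number was thus seen for ADAR1 siRNA, and for control siRNA it could not be told. With the replicate block the translational efficiency of ADAM8 (adjusted p = 0.0378) and ADAM19 (0.0384) passed by edgeR. With 1 library left in a group, its spread was taken from the other groups. A count of 10 or more in each assay kept 33 of the 36 members. Low counts limit ADAM12, ADAM23, ADAM28, ADAMTS14, MMP3, MMP10 and MMP24.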
